A study of Mus musculus with 6 samples.

Results

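RNA of 37 genes that mark macrophages, monocytes and neutrophils was followed, library by library, in CD8+ T cells sorted from pancreatic tumours. The 37 genes are a fixed list out of 55471 gene IDs in the deposited tables, and all 37 were matched to a mouse symbol in GENCODE M21. The list was selected on measured values of these same libraries, as RNA that is carried over into sorted T cells or made ectopically by them, so the differences between the groups are given as a description and support nothing. Chil3 and Ly6c2 were set apart from the other 35.

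The cells were OT-I CD8+ T cells, which recognise an ovalbumin peptide, with a Cas9 knock-in. They carried a lentiviral vector with a CD90.1 reporter and either a guide against Elovl1 (sgElovl1, 3 libraries) or a non-targeting guide (sgNT, 3 libraries). The cells were transferred into mice with orthotopic tumours of the ovalbumin-expressing pancreatic line KPC_OVA, aPD-1 treatment of all recipients began on the following day, and CD90.1+ cells were sorted from the primary tumour 7 days after transfer. Each library came from a different mouse or mice, and sgElovl1 replicates 1 and 2 each pooled the RNA of 2 tumours. The recipients kept their own immune system, and the bulk sort is described by CD90.1 alone. The study's flow cytometry gate for OT-I T cells left out CD11b+ cells, which would remove most macrophages, monocytes and neutrophils, but whether this gate was used for the bulk sort is not stated. Itgam, which encodes CD11b, had 140, 137 and 129 counts in sgElovl1 replicates 1, 2 and 3 and 59, 111 and 37 in sgNT replicates 1, 2 and 3. The ages of the mice were not used here.

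Macrophages and monocytes take up and digest debris and microbes, for which they use scavenger and Fc receptors, lysosomal enzymes and an oxidase, and they secrete cytokines, chemokines and complement C1q. Neutrophils share many of these functions and are marked by the receptors for G-CSF and for CXC chemokines and by calprotectin. In pancreatic tumours macrophages and monocytes are an abundant part of the infiltrate, and activated CD8+ T cells are known to transcribe some of the listed genes themselves, among them Ly6c2, Fcer1g, Tyrobp, Ctss and Cst3. Bulk counts do not show which cells held an RNA, and fewer cells of a type cannot be told apart from less RNA per cell.

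The libraries held between 21980273 and 26165380 expected counts. Elovl1 itself had 85.8, 80.7 and 94.9 CPM (counts scaled to a library total of 1000000) in sgElovl1 cells and 275, 274 and 241 CPM in sgNT cells, where the 3 values of a group stand, here and throughout, in the order of replicates 1, 2 and 3. T cell genes were high in all 6 libraries but not equal between the groups. Cd8a had 2080, 2048 and 2045 CPM in sgElovl1 cells and 2646, 2646 and 2602 CPM in sgNT cells, and Trac 2484, 2365 and 2641 CPM against 3542, 3480 and 3268 CPM. Of 10 T cell control genes, Cd8a, Cd8b1, Cd247 and Trac were called lower in sgElovl1 cells and Cd3e higher, and the part of this difference in the marker levels was not tested. A list of 9 tumour epithelial genes summed to 37.4, 49.6 and 351 CPM in sgElovl1 cells and 55.2, 47.3 and 1054 CPM in sgNT cells, so the third library of both groups stood apart. Of the other cell types that a sort could hold, 5 B cell genes summed to between 6.32 and 9.56 CPM with Pax5 at 0 in every library, and 9 fibroblast genes summed to at most 0.537 CPM.

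The marker genes covered a wide range of levels. The plot of all members shows that some lay at the same level in every library, while many were spread over a factor of 10 or more.

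**Figure D1:**
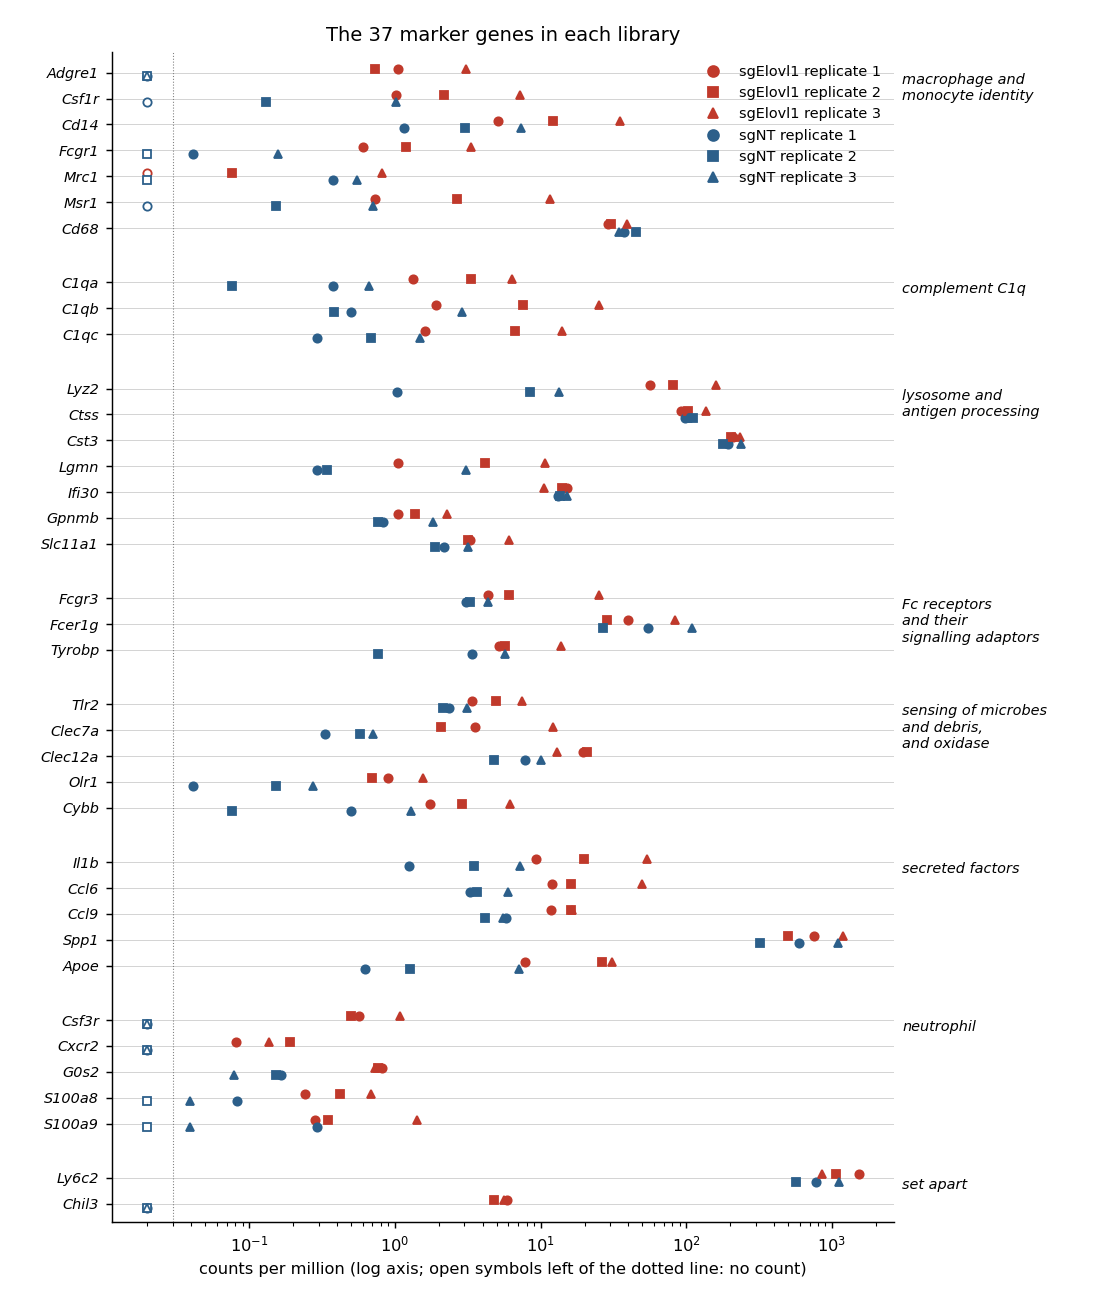
CPM (log axis) of each of the 37 marker genes, ordered by role, in the 3 sgElovl1 libraries (red) and the 3 sgNT libraries (blue); circles, squares and triangles are replicates 1, 2 and 3, and open symbols left of the dotted line are libraries with no count. Chil3, Adgre1, Csf3r and Cxcr2 had no count in any sgNT library, whereas Cd68, Ctss, Cst3 and Ifi30 lay close together in all 6.

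Chil3 encodes Ym1, a chitinase-like protein without chitinase activity that mouse macrophages and neutrophils secrete. It had 145, 124 and 123 counts in sgElovl1 cells and no count in any sgNT library. On the scale of library size this was 5.87, 4.76 and 5.60 CPM, and on the scale of transcript shares 4.67, 3.94 and 4.55 TPM, which are scaled for transcript length. All 3 sgElovl1 libraries lay close together and the groups did not overlap. With a floor of 3 counts in each sgNT library, the mean of 5.41 ± 0.581 CPM (SD, n = 3) was at least 45.5-fold higher in sgElovl1 cells, and the lowest sgElovl1 library at least 40.1-fold higher. The depth therefore allowed a low level in sgNT cells and did not show absence.

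No other gene in the tables had this pattern at this level. Of the 9088 genes with at least 100 counts in every sgElovl1 library, Chil3 was the 1 gene with no count in any sgNT library. At a minimum of 10 counts there were 6 such genes of 11944, namely Chil3, the members Adgre1 and Csf3r, and the gene models Gm2026, Gm38120 and Gm45266. In the opposite direction the gene model Gm9008 had at least 100 counts in every sgNT library and none in sgElovl1 cells.

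Chil3 lies on chromosome 3, from 106147554 to 106167564 on the minus strand (GRCm38, GENCODE M21), near its paralogue Chil4. Chil4 had 0, 0 and 8 counts in sgElovl1 cells and 0, 0 and 3 in sgNT cells. Of the 1440 windows of 100 bases in the longest Chil3 transcript, 3.75% also occur in a Chil4 transcript, and all Chil3 counts were whole numbers, so no fractional assignment of reads is visible in them. Set against the lysozyme gene Lyz2 in the same library, Chil3 had 10.4, 5.84 and 3.53 counts per 100 Lyz2 counts in sgElovl1 cells. In sgNT cells the floor of 3 counts corresponded to 12.0, 1.36 and 0.885 per 100. Chil3 thus varied less than Lyz2 among the sgElovl1 libraries. In sgNT replicates 2 and 3 its limit lay below the lowest of these ratios, while in sgNT replicate 1 there were too few Lyz2 counts to tell.

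Ly6c2 encodes the surface protein Ly6C, which marks inflammatory monocytes and is also carried by activated and memory CD8+ T cells. By its mean over all 6 libraries it was the highest of the 37 members, although Spp1 lay above it in sgElovl1 replicate 3. It had 1526, 1059 and 847 CPM in sgElovl1 cells and 771, 562 and 1121 CPM in sgNT cells. The highest sgNT library, replicate 3, lay above sgElovl1 replicates 2 and 3, so the groups overlapped. Their means were 1144 ± 348 and 818 ± 282 CPM (SD, n = 3 each), and the fitted log2 fold change of 0.37 (SE 0.31) was not called. Per length, Ly6c2 reached 3085, 2281 and 1783 TPM against 1655, 1242 and 2308 TPM, between 96.4% and 323% of the TPM of Cd8a in the same library.

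Ly6c2 lies on chromosome 15, from 75108158 to 75111970 on the minus strand. Its paralogue Ly6c1 had 4.01, 5.01 and 7.01 counts in sgElovl1 cells and 25.1, 3 and 118 in sgNT cells, so nearly all Ly6C reads were assigned to Ly6c2. The longest Ly6c2 transcript shares 15.8% of its windows of 100 bases with Ly6c1, and how reads from these windows were split is uncertain. The Ly6c2 count of sgNT replicate 3 was not whole (28647.8). The neighbouring Ly6a and Ly6e, which T cells transcribe, had between 16040 and 35273 counts.

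**Figure D2:**
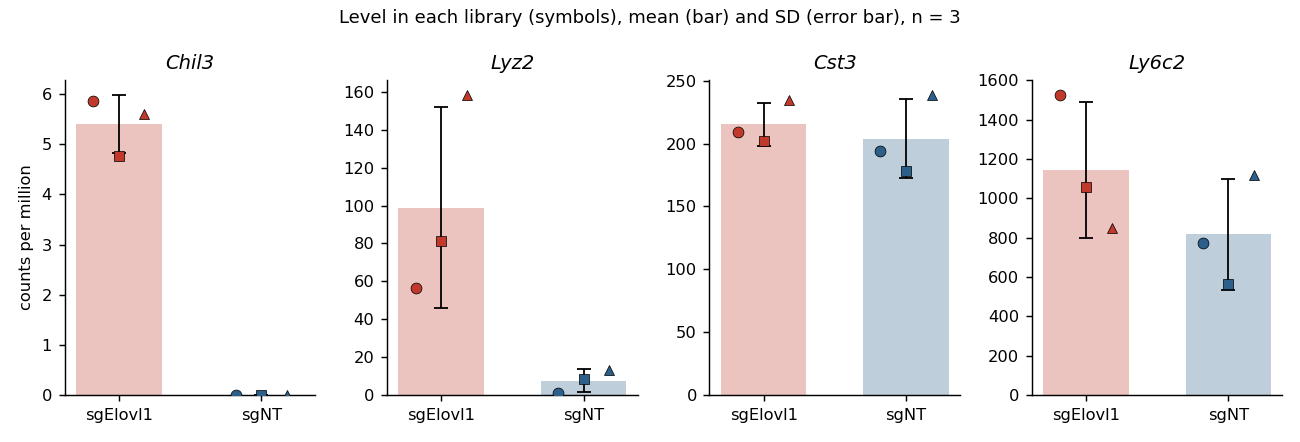
CPM of Chil3, Lyz2, Cst3 and Ly6c2 in each library (symbols as circles, squares and triangles for replicates 1, 2 and 3), with the mean as a bar and the SD as an error bar (n = 3 each); each axis starts at 0. Chil3 was between 4.76 and 5.87 CPM in sgElovl1 cells and at 0 in sgNT cells, Lyz2 was graded, Cst3 was level and Ly6c2 overlapped between the groups.

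To show what lies before these genes, bases upstream of the RefSeq transcription start are printed for Chil3, Ccl9, Lyz2 and Ly6c2. Chil3 and Ccl9 were called in every fit that left out 1 library. So were Csf3r, which is not printed, and Adgre1, for which no promoter was at hand. The printed bases are RefSeq promoters of GRCm38.p6, 250 bases long and given 5′ to 3′ on the strand of the gene. For Lyz2 the last 49 bases, which GENCODE M21 places inside the gene, were left out. Capitals mark GAGGAA and AGGAAGT on either strand, which hold the GGAA core bound by PU.1, the factor that macrophages and neutrophils depend on, and by other ETS factors. The windows are chr3:106167565-106167814 (minus strand) for Chil3, chr11:83578637-83578886 (minus strand) for Ccl9, chr10:117282322-117282522 (minus strand) for Lyz2 and chr15:75111972-75112221 (minus strand) for Ly6c2.
Chil3: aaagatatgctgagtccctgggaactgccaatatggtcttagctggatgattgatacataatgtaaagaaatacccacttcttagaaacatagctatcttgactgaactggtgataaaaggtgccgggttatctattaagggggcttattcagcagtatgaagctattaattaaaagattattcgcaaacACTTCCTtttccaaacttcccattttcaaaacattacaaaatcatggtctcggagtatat
Ccl9: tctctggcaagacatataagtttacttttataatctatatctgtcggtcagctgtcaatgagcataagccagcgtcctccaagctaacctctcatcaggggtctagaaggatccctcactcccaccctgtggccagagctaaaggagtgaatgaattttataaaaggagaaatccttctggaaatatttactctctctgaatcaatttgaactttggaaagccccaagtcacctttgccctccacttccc
Lyz2: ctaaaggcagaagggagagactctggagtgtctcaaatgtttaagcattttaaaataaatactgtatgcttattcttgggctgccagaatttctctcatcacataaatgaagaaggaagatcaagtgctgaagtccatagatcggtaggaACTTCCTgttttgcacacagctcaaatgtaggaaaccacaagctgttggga
Ly6c2: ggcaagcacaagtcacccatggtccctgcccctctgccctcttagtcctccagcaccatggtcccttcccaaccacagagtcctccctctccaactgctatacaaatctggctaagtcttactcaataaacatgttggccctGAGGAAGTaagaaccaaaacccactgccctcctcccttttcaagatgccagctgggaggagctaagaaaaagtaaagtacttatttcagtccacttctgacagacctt

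Chil3 and Lyz2 each hold 1 AGGAAGT, read on the opposite strand, Ly6c2 holds both motifs in 1 overlapping stretch, and Ccl9 holds neither. Promoters were in the table for 31 of the 37 members and not for Adgre1, Csf1r, Cd14, Msr1, C1qa and Tyrobp. GAGGAA (or TTCCTC) occurred in the 250 bases before the RefSeq start of 18 of the 31, which is 58.1%, against 25.9% of 27025 genes. AGGAAGT (or ACTTCCT), which can overlap GAGGAA, occurred in 10 of the 31, 32.3%, against 8.80% of all genes, and TATAAA (or TTTATA) in 7 of the 31, 22.6%, against 14.3%. A match of letters is no binding site, and nothing was read from a window without one.

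Of the 7 genes of macrophage and monocyte identity, 6 were tested, 2 were called higher in sgElovl1 cells and none was called lower. Over all 12546 genes tested, 8.64% were called higher and 5.13% lower, shares that stand beside every count of calls below. Adgre1, which encodes the macrophage surface protein F4/80, had 26, 19 and 68 counts in sgElovl1 cells and none in any sgNT library. At the same floor of 3 counts its mean of 1.63 ± 1.28 CPM was at least 13.7-fold higher in sgElovl1 cells. The lowest sgElovl1 library was at least 6.14-fold higher. Fcgr1, the high-affinity receptor for IgG, had 15, 31 and 73 counts against 1, 0 and 4. Both were low in every library, and for both the groups did not overlap. Both had under 10 counts in every sgNT library, so they could be tested only through their level in sgElovl1 cells. The call of Fcgr1 was lost without sgElovl1 replicate 2 or without sgNT replicate 1 or 2.

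Cd14, the co-receptor for lipopolysaccharide, had 126, 315 and 766 counts in sgElovl1 cells and 28, 79 and 188 in sgNT cells. The highest sgNT library exceeded the lowest sgElovl1 library, although the mean was 4.51-fold higher in sgElovl1 cells. Msr1, a scavenger receptor for modified lipoproteins, had 18, 70 and 253 counts against 0, 4 and 18, with sgElovl1 replicate 1 and sgNT replicate 3 nearly level. Csf1r, the receptor for the macrophage growth factor CSF1, had 25, 57 and 158 counts against 0, 3.43 and 26.0, and not all of its counts were whole. These 3 genes shared the same order of libraries within each group, and replicate 3 was the highest in both.

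Mrc1, the mannose receptor, was too low to be tested, with 0, 2 and 18 counts against 9, 0 and 14. Cd68 is a glycoprotein of late endosomes. It lay at 28.9, 30.6 and 39.2 CPM in sgElovl1 cells and 37.3, 45.2 and 34.7 CPM in sgNT cells, so that the sgNT mean was the higher one, with a fitted log2 fold change of -0.34 (SE 0.16). Cd68 was called lower only where sgElovl1 replicate 3 was left out, alone or with sgNT replicate 3.

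The 3 chains of complement C1q, which binds immune complexes and dying cells, followed each other. C1qb had 47, 196 and 549 counts in sgElovl1 cells and 12, 10 and 74 in sgNT cells, and C1qc had 40, 173 and 309 against 7, 18 and 38. C1qa had 33, 87 and 140 counts against 9, 2 and 17. Mean levels were 9.91-fold higher in sgElovl1 cells for C1qa, 9.11-fold for C1qb and 9.06-fold for C1qc. All 3 were highest in sgElovl1 replicate 3. The groups overlapped for C1qb alone, where 24.4% of all tested genes were without overlap and higher in sgElovl1 cells. C1qa was called, and was no longer called without sgElovl1 replicate 2, sgNT replicate 1 or sgNT replicate 2.

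The genes of lysosomes and antigen processing fell into graded and level members, and none of the 7 was called. Lyz2, which encodes lysozyme and is used to mark myeloid cells, had 1395, 2123 and 3484 counts in sgElovl1 cells and 25, 221 and 339 in sgNT cells. Its mean was 98.8 ± 53.2 CPM against 7.58 ± 6.16 CPM (SD, n = 3 each), with every sgElovl1 library above every sgNT library. The fitted log2 fold change was 3.61 (SE 1.02). Lyz2 lies on chromosome 10, from 117277331 to 117282321 on the minus strand, beside Lyz1, which had at most 2 counts in any library. Lgmn, an asparaginyl endopeptidase, had 26, 109 and 237 counts against 7, 9 and 78, and its groups overlapped.

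Cst3, the cysteine protease inhibitor cystatin C, lay at 209, 202 and 235 CPM in sgElovl1 cells and 194, 179 and 239 CPM in sgNT cells. Ctss, cathepsin S, which trims the invariant chain of MHC class II, lay at 91.7, 102 and 137 CPM against 97.7, 112 and 102 CPM. Their fitted log2 fold changes were -0.02 (SE 0.14) and -0.01 (SE 0.16), and both overlapped fully between the groups. Ifi30, the lysosomal thiol reductase of antigen processing, was between 10.6 and 15.1 CPM in all 6 libraries and was lowest in sgElovl1 replicate 3, where most other members were highest. Gpnmb, a glycoprotein of lipid-laden macrophages, had between 20 and 50 counts and overlapped. Slc11a1, a metal transporter of the phagosome, had 81, 83 and 133 counts against 52, 49 and 81, and did not overlap once scaled to library size (3.19 to 6.05 CPM against 1.87 to 3.17 CPM). In TPM its groups overlapped (2.79 in sgElovl1 replicate 1 and 3.22 in sgNT replicate 3).

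None of the 3 genes listed under Fc receptors and their signalling adaptors was called, while the Fc receptor gene Fcgr1, described above, was. Fcer1g, the common gamma chain, which T cells also use, lay at 40.0, 28.4 and 83.0 CPM in sgElovl1 cells and 54.2, 26.8 and 110 CPM in sgNT cells. It was highest in sgNT replicate 3, and its mean was lower in sgElovl1 cells. Fcgr3, a low-affinity IgG receptor, had 108, 157 and 549 counts against 74, 86 and 111, and the groups did not overlap in CPM although sgElovl1 replicate 1 (4.37 CPM) lay just above sgNT replicate 3 (4.34 CPM). In TPM the groups overlapped (4.15 in sgElovl1 replicate 1 and 4.24 in sgNT replicate 3). Tyrobp, the adaptor DAP12, had 128, 149 and 301 counts against 82, 20 and 145, and the groups overlapped.

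All 5 genes for the sensing of microbes and debris and for the phagocyte oxidase had their lowest sgElovl1 library above their highest sgNT library in CPM. Of these genes, 3 were called. Over all tested genes, 24.4% were without such overlap and 8.64% were called higher. Tlr2 separated narrowly, at 3.36 CPM in sgElovl1 replicate 1 and 3.13 CPM in sgNT replicate 3. Clec12a, an inhibitory receptor for uric acid crystals, had 481, 540 and 285 counts in sgElovl1 cells and 188, 125 and 257 in sgNT cells. Within its group sgElovl1 replicate 3 was the lowest library for this gene. Clec7a, the beta-glucan receptor Dectin-1, had 87, 54 and 266 counts against 8, 15 and 18, and its mean was 11.0-fold higher in sgElovl1 cells. Olr1, a receptor for oxidised LDL, had 22, 18 and 34 counts against 1, 4 and 7. Tlr2, a receptor for bacterial lipoproteins, had 83, 128 and 165 counts against 57, 56 and 80, and Cybb, the catalytic subunit of the oxidase, had 43, 75 and 135 against 12, 2 and 33. The call of Clec7a was lost without sgElovl1 replicate 1 or any 1 of the sgNT libraries, that of Clec12a without the first or the second library of either group, and that of Olr1 without any library but sgNT replicate 3.

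Secreted factors held both Spp1, the highest of the 35 members, and Ccl9, whose libraries lay close together within each group. Ccl9, a CC chemokine, lay at 11.8, 16.3 and 16.4 CPM in sgElovl1 cells and 5.80, 4.13 and 5.48 CPM in sgNT cells. Its mean was 14.8 ± 2.61 against 5.14 ± 0.888 CPM (SD, n = 3 each), 2.89-fold higher, with a fitted log2 fold change of 1.44 (SE 0.21), and it was the 1 secreted factor called. Ccl6, its neighbour on chromosome 11, lay at 11.9, 16.1 and 49.5 CPM against 3.28, 3.67 and 5.98 CPM. The 2 chemokines were alike in sgElovl1 replicates 1 and 2 and parted in sgElovl1 replicate 3, where Ccl6 was higher.

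Il1b, the inflammatory cytokine interleukin-1 beta, lay at 9.36, 19.8 and 54.0 CPM in sgElovl1 cells and 1.24, 3.48 and 7.24 CPM in sgNT cells. Apoe, the lipid carrier apolipoprotein E, lay at 7.82, 26.5 and 30.7 CPM against 0.622, 1.26 and 7.08 CPM. For both the groups did not overlap in CPM, and the means were 6.95-fold and 7.25-fold higher in sgElovl1 cells. Spp1 encodes osteopontin, a secreted glycoprotein made by macrophages, tumour cells and activated T cells. It lay at 746, 502 and 1183 CPM in sgElovl1 cells and 597, 321 and 1105 CPM in sgNT cells, with the third library of both groups nearly level at the top. Its groups overlapped, with means of 810 ± 345 and 674 ± 398 CPM. The 9 epithelial genes were also highest in these 2 libraries, at 351 and 1054 summed CPM, and their part in the Spp1 level was not tested.

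Neutrophil markers were near the lower limit of these libraries. Csf3r, the G-CSF receptor, had 14, 13 and 24 counts in sgElovl1 cells and none in any sgNT library, which at the floor of 3 counts made its mean of 0.719 ± 0.324 CPM at least 6.06-fold higher. G0s2, an inhibitor of the lipase ATGL that many cell types express, had 20, 20 and 16 counts against 4, 4 and 2, and kept its call only when sgElovl1 replicate 3 was the library left out. S100a8 and S100a9, the subunits of calprotectin and among the most abundant messages of neutrophils, had 6, 11 and 15 counts against 2, 0 and 1, and 7, 9 and 31 against 7, 0 and 1. Cxcr2, the receptor for neutrophil-attracting chemokines, had 2, 5 and 3 counts against none. The last 3 genes were too low to be tested, and Csf3r and G0s2 could be tested only through their level in sgElovl1 cells. Among the 5 markers the groups overlapped for S100a9 only, where 24.4% of all tested genes were without overlap and higher in sgElovl1 cells. That share does not cover S100a8 and Cxcr2, which were not tested. No library reached 2 CPM for any of the 5, so nothing is read from this count.

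Over the whole list, 33 of the 37 members passed the filter on low counts, and 10 of the 33 were called higher in sgElovl1 cells at an adjusted p under 0.05 in edgeR. Of all genes tested, 8.64% were called higher and 5.13% lower. Because the list was chosen on this contrast, nothing is read from the difference between these shares. The 10 were Adgre1, Fcgr1, C1qa, Clec7a, Clec12a, Olr1, Ccl9, Csf3r, G0s2 and Chil3. No member was called lower in edgeR, DESeq2 or limma-voom, and none was lower at an unadjusted p under 0.05 in edgeR. In 6 of the 33 every sgNT library had under 10 counts, so that these genes passed the filter through sgElovl1 cells alone. They were Adgre1, Fcgr1, Olr1, Csf3r, G0s2 and Chil3, and all 6 are among the 10 called members. These genes could enter the test only by being high in sgElovl1 cells, so nothing is read from their calls. The median fitted log2 fold change was 2.40 over the tested members and -0.004 over all tested genes. In CPM the groups did not overlap, with sgElovl1 higher, for 22 of the 37 members and for 20 of the 33 tested, against 24.4% of all tested genes. CPM is without the TMM factors of the edgeR fit, which were 1.05 in sgElovl1 replicates 1 and 2 and 0.947 in sgNT replicate 3. Members that separated narrowly, such as Tlr2 and Apoe, overlap once these factors are applied.

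Of the 17 tested members with a mean of at least 5 CPM, 2 were called, Ccl9 and Clec12a. The other 8 called members lay below this level. Over all tested genes 8.64% were called higher, and the share at this level was not counted. Among the 8 are the 6 members that could be tested only through sgElovl1 cells, so nothing is read from this spread over levels. Calls also depended on single libraries, among the members and over all genes. With all libraries, 10 members and 1084 of all genes were called higher. The counts were 6 and 384 without sgElovl1 replicate 1, 5 and 279 without replicate 2, and 10 and 1414 without replicate 3. They were 4 and 796 without sgNT replicate 1, 4 and 334 without replicate 2, and 11 and 914 without replicate 3. Chil3, Adgre1, Csf3r and Ccl9 were called in all 6 fits that left out 1 library. Without the third library of both groups, 17 members were called higher and Cd68 lower. In that fit 1947 of all genes were higher and 2039 lower, so these changes are not read as a trait of the members.

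**Figure D3:**
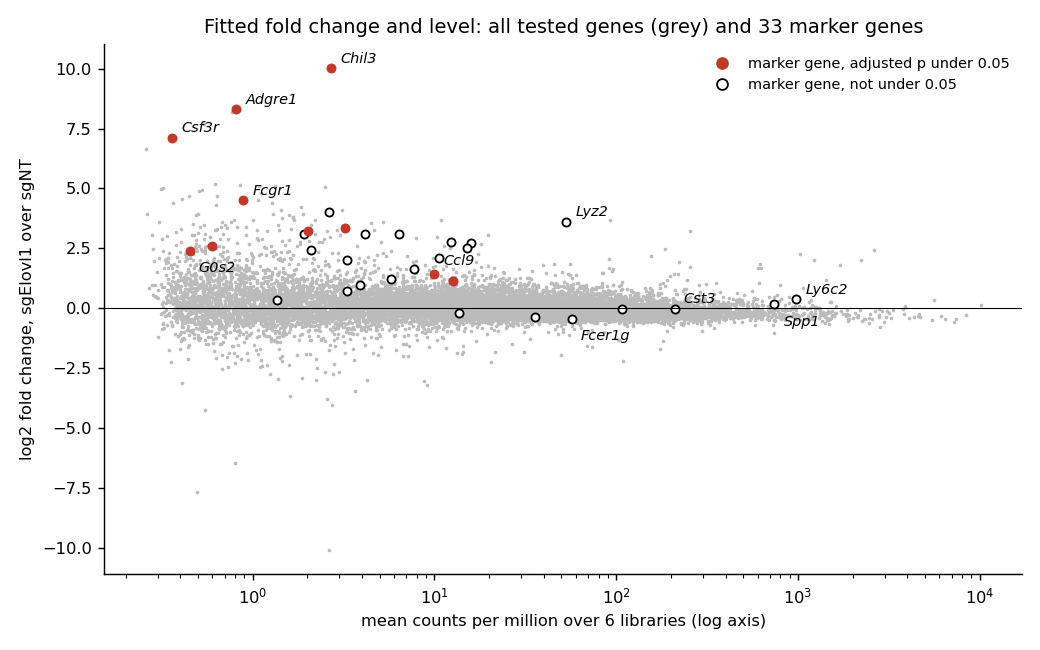
Fitted log2 fold change of sgElovl1 over sgNT against the mean CPM over all 6 libraries (log axis) for all 12546 tested genes (grey) and the 33 tested marker genes; filled red points were called at an adjusted p under 0.05 and open points were not. The fitted fold changes of Chil3, Adgre1 and Csf3r depend on the prior count, since their sgNT libraries hold no count. Cst3, Spp1 and Ly6c2 lie near 0 at high levels, whereas Lyz2 lies at 3.61.

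Many members were highest in the same libraries. The share of all genes with this pattern was not counted, so it is not read as a trait of the members. Of the 37 members, 28 were highest in sgElovl1 replicate 3, and 24 were highest in replicate 3 of both groups, among them all 3 C1q chains, Lyz2, Cd14, Il1b and Apoe. Within sgElovl1 cells the highest library of Msr1 was 15.8-fold above the lowest, that of C1qb 13.1-fold and that of Cd14 6.83-fold. By contrast the ratio was 1.11 for G0s2, 1.16 for Cst3, 1.23 for Chil3, 1.36 for Cd68 and 1.39 for Ccl9. Within sgElovl1 cells Chil3 did not have the order of libraries that most members shared. Ccl9 had it there, over this narrower range in CPM and over 4.96, 6.16 and 9.71 in TPM. Its sgElovl1 replicates 2 and 3 were nearly level in CPM (16.3 and 16.4), and its highest sgNT library was replicate 1.

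Deviations from the group means tended to be shared by libraries of the same replicate number (correlations over genes of 0.212, 0.246 and 0.407), so the members were also compared within these 3 pairs. In CPM, 29 of the 37 members were higher in sgElovl1 cells in all 3 pairs, and of the 33 tested members 27 were, against 34.3% of all tested genes. The exceptions were Mrc1, Cd68, Ctss, Cst3, Ifi30, Fcer1g, S100a9 and Ly6c2. Cd14 was 4.40-fold, 4.00-fold and 4.74-fold higher in pairs 1, 2 and 3, and Il1b was 7.52-fold, 5.69-fold and 7.46-fold higher. Both ratios were nearly constant although the level of each gene changed more than 5-fold among the libraries of a group. Lyz2 had ratios of 54.5, 9.65 and 12.0, the first of which rested on the 25 counts of sgNT replicate 1. Ly6c2 had ratios of 1.98, 1.88 and 0.755 and so reversed in pair 3.

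**Figure D4:**
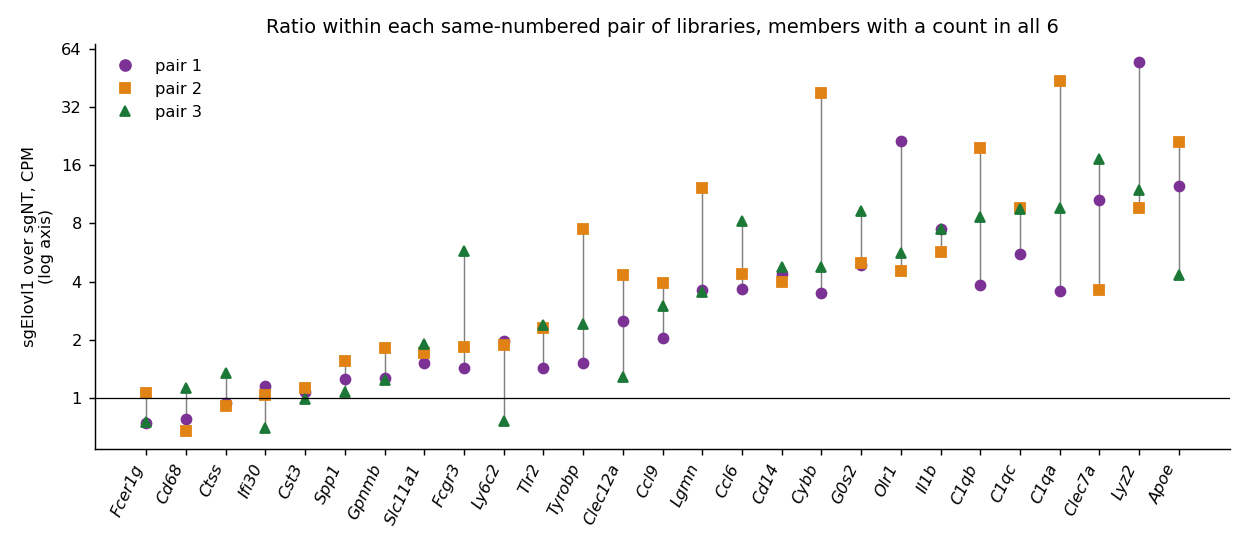
Ratio of CPM, sgElovl1 over sgNT, within each pair of libraries of the same replicate number (log axis), for the 27 members with a count in all 6 libraries, ordered by their median ratio; grey lines join the lowest and the highest ratio. Cd14 and Il1b have nearly the same ratio in all 3 pairs, whereas C1qa, Cybb and Lyz2 are spread over more than 5-fold.

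With the replicate number as a block in the edgeR fit, 21 members were called higher and none lower, where 8.92% of all tested genes were called higher. The labels do not pair the libraries. The pairing was taken from these same data, so the calls with the block are a description. All 10 members called without the block were among them. The 11 others were Csf1r, Cd14, Msr1, C1qb, C1qc, Lyz2, Lgmn, Cybb, Il1b, Ccl6 and Apoe. With the block the fitted log2 fold change of Cd14 was 2.04 (SE 0.18, against 1.09 without it), and that of Il1b was 2.67 (SE 0.17, against 1.03 without it). Spp1, Cst3, Ctss, Ifi30, Cd68, Fcer1g and Ly6c2 were called in neither fit.

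Summed over the 35 members without Ly6c2 and Chil3, marker RNA made up 1287, 1129 and 2205 CPM in sgElovl1 cells and 1029, 738 and 1694 CPM in sgNT cells. The groups overlapped, and the mean was 1.34-fold higher in sgElovl1 cells. Within the same-numbered pairs the sum was higher in sgElovl1 cells in all 3, by between 1.25-fold and 1.53-fold. Spp1 alone held 55.1% of this sum, and Spp1, Cst3, Ctss, Fcer1g and Lyz2 together were its 5 highest members. Without Spp1 the sum was 542, 627 and 1022 CPM against 432, 416 and 588 CPM, and the groups still overlapped, with 1.25-fold, 1.51-fold and 1.74-fold higher sums within the pairs. Without all 5, a choice made after seeing the data, it was 144, 214 and 409 CPM against 85.5, 90.8 and 124 CPM, and the mean was 2.55-fold higher, with 1.69-fold, 2.36-fold and 3.30-fold within the pairs. The summed level thus reported mostly Spp1, and the low members, which differ most, hardly weighed in it.

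**Figure D5:**
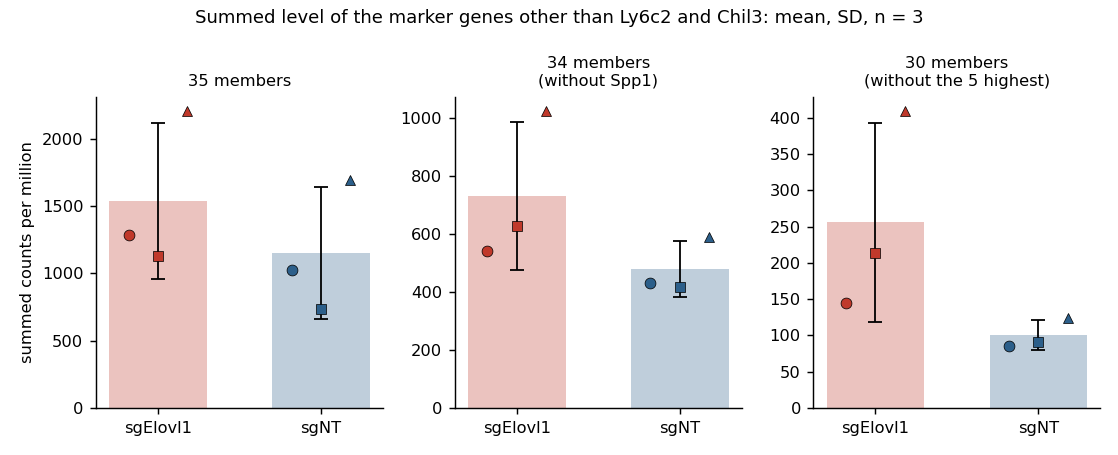
Summed CPM of the marker genes other than Ly6c2 and Chil3 in each library (circles, squares and triangles for replicates 1, 2 and 3), with the mean as a bar and the SD as an error bar (n = 3 each), for 35 members, for 34 without Spp1, and for 30 without the 5 highest; each axis starts at 0. The groups overlap in the first and second panels and not in the third, where sgElovl1 libraries lie between 144 and 409 CPM and sgNT libraries between 85.5 and 124 CPM.

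A wider list of 68 other myeloid genes was counted beside the members. Of these, 43 were tested, 12 rose and 2 fell in sgElovl1 cells, against 8.64% and 5.13% of all tested genes, and their median log2 fold change was 1.09. The 5 called genes of the highest level were Ctsd, Ctsb, Lilr4b, Lilrb4a and Ccr2. Lilr4b and Lilrb4a, inhibitory receptors of myeloid cells that activated T cells also express, rose from 219 ± 25.4 to 489 ± 29.1 CPM and from 186 ± 16.4 to 387 ± 45.9 CPM (n = 3 each, edgeR's adjusted p = 0.00134 and 0.00232). The 2 are near-identical neighbours, and the split of reads between them is uncertain. Ccr2, the receptor that draws monocytes to CCL2 and is also made by T cells, rose from 163 ± 32.6 to 263 ± 23.4 CPM (n = 3 each, edgeR's adjusted p = 0.0276). The lysosomal proteases cathepsin D (Ctsd) and cathepsin B (Ctsb) fell, from 2591 ± 167 to 1937 ± 134 CPM and from 1763 ± 117 to 1194 ± 248 CPM (n = 3 each, edgeR's adjusted p = 0.0325 and 0.0291). Without sgElovl1 replicate 2 or without sgNT replicate 2, 3 genes of this list were called higher and none lower, and without sgNT replicate 1, 4 and none, while without sgElovl1 replicate 1 none was lower. Without sgElovl1 replicate 3, 4 were lower, and without sgNT replicate 3, 1. Over all genes, the fits that left out 1 library called 279 to 1414 higher and 42 to 1304 lower. With the replicate block 21 of the list were higher, against 8.92% of all tested genes. Lilrb4a, Lilr4b and the coagulation factor gene F13a1 kept their call in all 6 fits that left out 1 library. F13a1 had 27, 69 and 79 counts in sgElovl1 cells and 1, 1 and 6 in sgNT cells. F13a1, Alox5ap and Clec4n, all among the 12, had under 10 counts in every sgNT library. These genes could be tested only through their level in sgElovl1 cells, so nothing is read from their calls.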

How the data were processed

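Bulk RNA was pre-amplified (SMARTer) and sequenced in paired ends. Per the submitters' processing notes, the authors mapped reads to mm10 with STAR 2.7.7a, quantified genes with RSEM 1.3.1 and ran DESeq2 1.36.0. The annotation release is not given in the sources used here. The deposited expected counts, which RSEM estimates per gene, are not scaled between libraries. The deposited TPM values are transcript shares scaled for length.

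Symbols were taken from GENCODE M21 (55144 of 55471 IDs). Among the 37 members, Csf1r and Ly6c2 (28647.8 in sgNT replicate 3) had counts that were not all whole. CPM is counts scaled to 1000000 per library, without TMM factors. Rounded counts were fitted with edgeR 4.0.16 in R 4.3.3, with filterByExpr (minimum count 10), TMM and a two-sided quasi-likelihood test with the group as the only term. P-values were adjusted by Benjamini-Hochberg over 12546 genes and called under 0.05. Standard errors were derived from that test, as the absolute log2 fold change divided by the square root of its F statistic. The steps were tested on simulated data.

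All members were named. Values of every library were required for Ly6c2, Chil3, the 2 highest members of each role and members without overlap between the groups, and for other lists the called genes, or the 5 highest of them, with the paralogues Ly6c1, Chil4 and Lyz1. Genes beyond this rule were chosen after their values were seen. The members and lists were chosen with earlier results of these data known.

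Alternatives were DESeq2 1.42.0, limma-voom (limma 3.58.1), limma on log2(TPM + 0.1), no low-count filter, a prior count of 2 in place of 0.125, leaving out libraries, and a replicate block. Deviations of same-numbered libraries from their group means were correlated over genes (0.212, 0.246 and 0.407), and on this ground the numbers were taken to pair them. The labels do not say what the number marks. P-values measure the spread between mice and pools, and limits from counts cover counting error only. No sequence of chromosome 18 genes is shown.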

Additional observations from a re-analysis of the deposited data

How the results depend on the processing

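Of 429 fitted fold changes of members under alternatives, 366 kept their direction and their side of the threshold, 28 lost the call, 33 gained it, 2 uncalled ones moved by more than their standard error with a change of sign, and no called one reversed. Leaving out 1 library at a time gave 4 to 11 members called higher and 0 to 1 lower, 3 to 17 other myeloid genes higher and 0 to 4 lower, and 279 to 1414 of all genes higher and 42 to 1304 lower. DESeq2 called 16 members, 19 other myeloid genes and 1396 of all genes higher, and 1088 of all genes lower. On log2(TPM + 0.1), limma called 1 other myeloid gene and 177 of all genes lower. With the replicate block 21 members, 21 other myeloid genes and 1119 of all genes were called higher, and no call of a member was lost. Without the third library of both groups, 17 members, 19 other myeloid genes and 1947 of all genes were higher, and 1 member, 6 other myeloid genes and 2039 of all genes were lower. The causes were not tested. The log2 ratio of the summed level was 0.42, between 0.07 and 0.80 with 1 library left out, and 1.35 without the 5 highest members. Leaving out the low-count filter shifted the median log2 fold change of all genes to 0.12.

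Low counts limit the description: 3 counts correspond to between 0.115 and 0.136 CPM, and 6 members had a mean under 1 CPM in both groups. With 3 libraries a group, an exact permutation test of a single gene could not go below 0.1.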

Other observations

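Genes of MHC class II, which macrophages, dendritic cells and B cells use to present antigen, were counted with a list of 12 dendritic cell genes and were singled out after their values were seen. H2-Aa had 310, 630 and 1093 counts in sgElovl1 replicates 1, 2 and 3 and 82, 118 and 235 in sgNT replicates 1, 2 and 3. Cd74, the invariant chain, had 1387, 2717 and 6282 counts against 511, 758 and 1303. Both had the order of libraries seen for Cd14, and for both every sgElovl1 library lay above every sgNT library in CPM. For Cd74 this was narrow, at 56.2 CPM in sgElovl1 replicate 1 and 51.0 CPM in sgNT replicate 3. Its groups overlap once the TMM factors are applied. Neither was called without the replicate block (edgeR, adjusted p = 0.117 and 0.176). Both were called with the block (edgeR, adjusted p = 0.000896 and 0.00255), which rests on a pairing taken from these same data. Of the genes that define dendritic cells, Flt3 and Clec9a had at most 2 counts in any library, whereas Xcr1 had between 605 and 983 counts and Itgax between 275 and 859, neither of them called. Zbtb46, a transcription factor of classical dendritic cells, was the 1 called gene of the list. It had 196, 137 and 123 counts against 86, 55 and 43, a log2 fold change of 1.26 (SE 0.31, edgeR, adjusted p = 0.0246), and was highest in sgElovl1 replicate 1, not in replicate 3.

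Markers of blood were seen mostly in 1 library. The platelet genes Pf4 and Ppbp had 28 and 20 counts in sgElovl1 replicate 3, and Ppbp had none in the other 5 libraries. Pf4 also had 3 and 11 counts in sgElovl1 replicates 1 and 2 and 7 in sgNT replicate 3. The haemoglobin gene Hbb-bs had 19 counts in sgElovl1 replicate 3 and none elsewhere. Their part in the levels of the marker genes was not tested.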
